A study of Mus musculus with 6 samples.

Results

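Coinhibitory receptors are surface proteins that restrain T cells when they meet a ligand, and 10 genes of this group were examined in stimulated regulatory T cells (Tregs) with and without Bach2. The members were taken by gene symbol from the series table: Ctla4, Pdcd1, Tigit, Cd96, Cd226, Lag3, Havcr2, Btla, Cd160 and Vsir, 10 of 49585 genes listed. All 10 passed the filter on low values (at least 1 FPKM in at least 3 libraries). Cd226 stands apart by function: it is the activating partner with which TIGIT and CD96 compete. Libraries labelled Bach2-cKO (3), where cKO stands for conditional knockout and Bach2 encodes a transcriptional repressor, were set against 3 labelled WT. All 6 came from spleens of C57BL/6 mice aged 7 weeks, and the sorted cells were positive for CD4 and YFP and negative for B220, and the series' design text adds CD25. Sorted cells of both genotypes received plate-bound anti-CD3 and anti-CD28 for 24 hours before poly(A) RNA was taken. The sources used here do not say what YFP reports, which cells lost Bach2, which part of the gene was removed or whether replicates came from separate mice, so p-values measure the spread between these libraries, which may be technical.

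Tregs express several of these receptors without the exhaustion that they mark in other T cells. CTLA-4 is the best known: it binds CD80 and CD86 on antigen-presenting cells more tightly than the costimulatory receptor CD28 does, and can strip them from the cell that carries them. PD-1, encoded by Pdcd1, recruits phosphatases when it binds PD-L1 or PD-L2. TIGIT and CD96 share the ligand PVR (CD155) with CD226. LAG-3 is a relative of CD4 that binds MHC class II, and TIM-3, encoded by Havcr2, binds galectin-9 among other ligands. BTLA and CD160 bind HVEM, and VISTA, encoded by Vsir, is a B7-like inhibitory protein of resting T cells and myeloid cells.

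The read totals recovered from the deposited values ran from 27703735 to 31976067 in the Bach2-cKO libraries and from 27697735 to 43884431 in the WT libraries, and a member had between 352 and 23017 reads in a library. Bach2 itself averaged 104.7 ± 16.0 FPKM in Bach2-cKO and 107.6 ± 7.11 FPKM in WT libraries (SD, n = 3 libraries each), so the gene total does not check the labels, and the directions below rest on them. The Treg factor Foxp3 was present in all libraries, at 104.2 to 153.5 FPKM in Bach2-cKO and 107.6 to 127.3 FPKM in WT. Markers of other cells were present too. The summed FPKM of 10 B cell markers was 1515.0 to 1952.8 in Bach2-cKO and 1036.4 to 1456.4 in WT libraries, and 4 of the 10 were higher by the test. Cd8a and Cd8b1, which define CD8 T cells, summed to 99.3, 80.0 and 53.8 FPKM in Bach2-cKO replicates 1, 2 and 3, against 40.2 to 44.2 FPKM in WT. All 3 markers of gamma delta T cells lay higher in every Bach2-cKO library and none passed, with sums of 34.1 to 85.5 against 6.96 to 25.9 FPKM. Of 5 plasma cell markers 4 were tested and 3 were higher (sums of 168.1 to 246.3 FPKM in Bach2-cKO and 89.7 to 102.6 FPKM in WT). The 4 NK cell markers were too low to be tested and summed to 1.89 to 2.68 FPKM in Bach2-cKO, against 0.886 to 1.17 FPKM in WT, without overlap. The 10 myeloid and dendritic cell markers summed to 31.7 to 35.7 FPKM in Bach2-cKO and 27.5 to 32.1 FPKM in WT, with 1 lower by the test and 5 under 1 FPKM in every library. No marker was at 0 throughout. The Treg marker list of 9 genes had 1 member higher and 3 lower. On the first principal component of all tested genes, with 55% of the variance, Bach2-cKO replicates 1, 2 and 3 lay at 26.2, 27.9 and 15.1, against -25.6, -25.3 and -18.5 for the WT replicates, so that replicate 3 of each group was the nearest to the other group. In bulk libraries, fewer cells of a type and less RNA per cell cannot be told apart.

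Havcr2 and Tigit rose, while Cd96, Btla and Vsir fell. The other 5 genes did not pass the threshold, a Benjamini-Hochberg adjusted p under 0.05 in a limma fit over all 13766 tested genes. Higher genes made up 7.02% and lower genes 8.31% of all genes tested, 15.3% together, against 5 of the 10 receptors. The 3 Bach2-cKO values lay wholly above the WT values for 3 receptors, where 15.5% of all genes did so, and wholly below them for 4, where 20.1% did; together that is 7 receptors, beside 35.6% of all genes. The median log2 fold change of the receptors was -0.12, beside -0.017 over all genes, and its median size without sign was 0.41, beside 0.17. The receptors were chosen with earlier results of these data known.

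**Figure D1:**
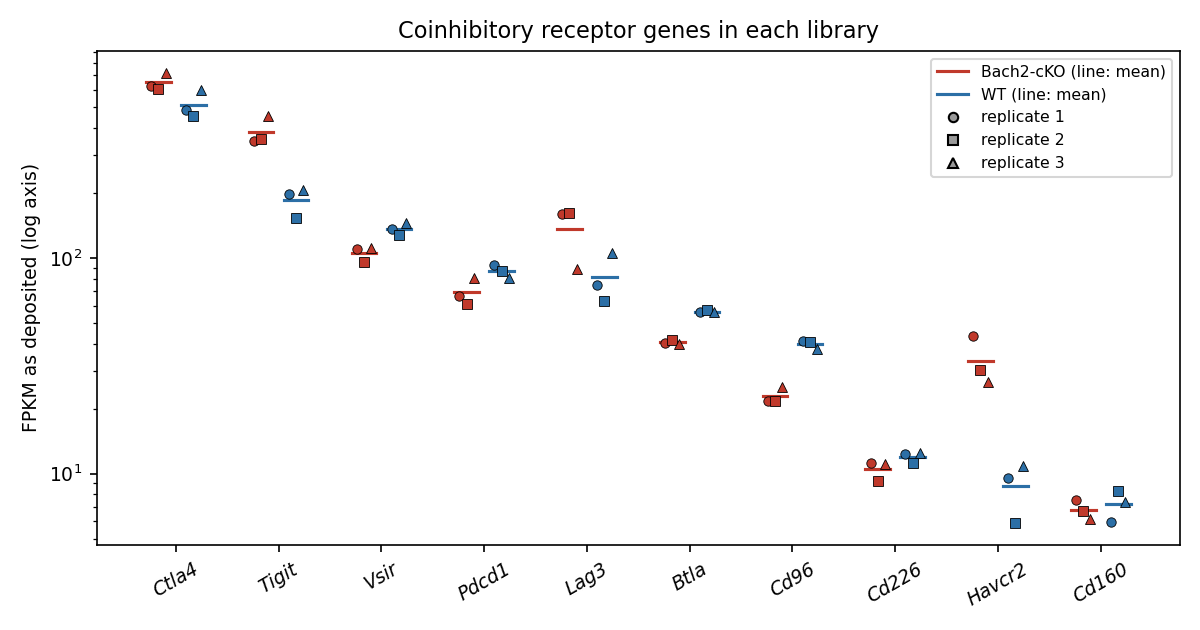
FPKM of the 10 coinhibitory receptor genes in each library, on a log axis, with Bach2-cKO in red left of WT in blue; symbols mark replicates 1 to 3 and lines the group means. Havcr2 and Tigit lie higher and Cd96, Btla and Vsir lower in every Bach2-cKO library than in any WT library, and Lag3 is split, with Bach2-cKO replicate 3 at 88.3 FPKM between the WT values.

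**Figure D2:**
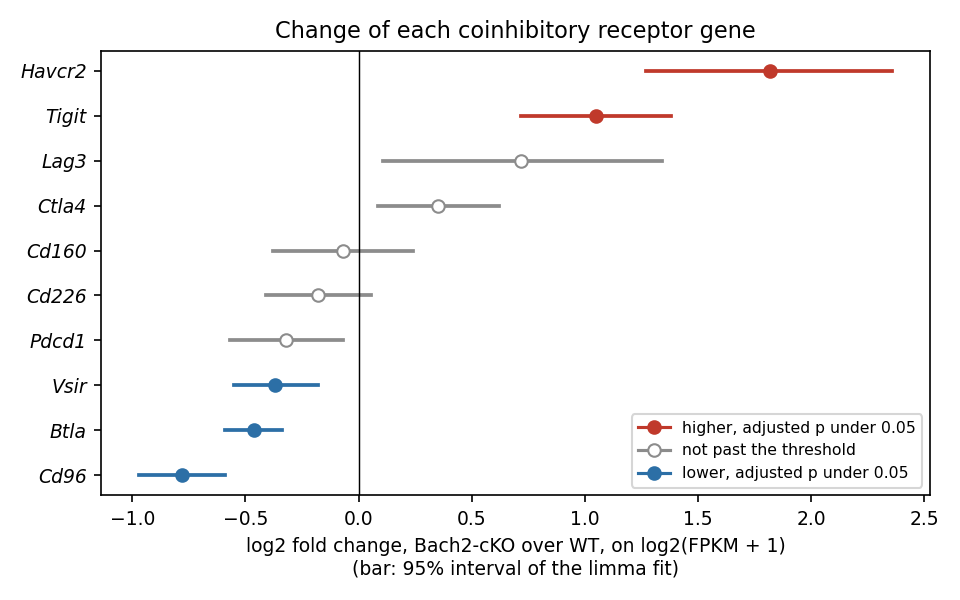
Log2 fold change of each receptor gene, Bach2-cKO over WT, on log2(FPKM + 1), with the 95% interval of the limma fit; filled points passed an adjusted p of 0.05. The changes run from -0.78 for Cd96 to 1.82 for Havcr2.

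Havcr2 (chromosome 11, 46454935 to 46481255, plus strand, GRCm38) changed most. It had 43.2, 30.2 and 26.5 FPKM in Bach2-cKO libraries and 9.57, 5.93 and 10.8 FPKM in WT libraries, means of 33.3 ± 8.75 and 8.78 ± 2.55 FPKM (SD, n = 3 libraries each). Every Bach2-cKO value was more than any WT value, though the 3 Bach2-cKO libraries spread widely, with a coefficient of variation of 26.3%. The log2 fold change was 1.82 (SE 0.24, 95% interval 1.27 to 2.36, adjusted p = 0.00300), a ratio of means of 3.79, and it ranked 23rd among the rises of all genes tested. Within the Bach2-cKO group Havcr2 was highest in replicate 1 and lowest in replicate 3. The CD8 markers given above and the gamma delta T cell markers (sums of 85.5, 36.7 and 34.1 FPKM) had the same order. Many genes given below had it too, among them Prdm1, Lgals3, Lrba, Crtam, Klrc1, Cd86, Cd160 and Cd200, the last of which fell. Nfil3, Tox2 and Icos were among those that did not. The part of either cell type in the Havcr2 values was not tested. Its call was the only one among the receptors that held with the B cell marker level of each library as a covariate (log2 fold change 2.52, adjusted p = 0.0296). That level was 6.44, 6.77 and 6.54 in Bach2-cKO and 5.96, 6.37 and 6.04 in WT libraries. The groups did not overlap in it, so this fit cannot well separate it from genotype. Calls kept or lost with this covariate, here and below, carry that limit.

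Tigit, whose product inhibits T cells and dendritic cells through PVR (chromosome 16, 43648861 to 43664184, minus strand), was the second gene to rise. It had 346.9, 354.1 and 452.8 FPKM in Bach2-cKO libraries, against 197.1, 153.0 and 207.2 FPKM in WT libraries. No values overlapped, and unlike Havcr2 the highest Bach2-cKO value was that of replicate 3. The means were 384.6 ± 59.1 and 185.7 ± 28.8 FPKM (SD, n = 3 libraries each), a log2 fold change of 1.05 (SE 0.14, 95% interval 0.72 to 1.38, adjusted p = 0.00355). The B cell covariate left Tigit at 1.37 with an adjusted p of 0.0547.

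Cd96, the other inhibitory receptor for PVR (chromosome 16, 46035657 to 46120251, minus strand), went the opposite way to Tigit. Its values were 21.7, 21.8 and 25.3 FPKM in Bach2-cKO and 41.1, 40.8 and 37.9 FPKM in WT libraries. Both groups were tight and far apart, at 22.9 ± 2.08 and 40.0 ± 1.8 FPKM (SD, n = 3 libraries each; log2 fold change -0.78, SE 0.081, 95% interval -0.97 to -0.59, adjusted p = 0.00126). With the B cell covariate its log2 fold change was also -0.78, with an adjusted p of 0.0889.

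The promoters of Havcr2, Tigit and Cd96 are shown because these receptors had the largest rises and the largest fall and because BACH2 is a DNA-binding repressor that recognises MAF recognition elements. Each runs from 250 bases before to 50 bases after the start site, 5′ to 3′ on the gene's strand (RefSeq, GRCm38.p6), and capitals mark a match to TGANTCA, the core shared by BACH and AP-1 sites with N for any base.
Havcr2 promoter (chr11:46454681-46454980, strand +): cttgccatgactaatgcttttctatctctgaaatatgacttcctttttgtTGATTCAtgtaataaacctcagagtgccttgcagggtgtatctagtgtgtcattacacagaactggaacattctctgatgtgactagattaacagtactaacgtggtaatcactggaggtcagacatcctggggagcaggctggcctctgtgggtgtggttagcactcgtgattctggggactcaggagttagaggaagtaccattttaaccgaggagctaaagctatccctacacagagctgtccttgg
Tigit promoter (chr16:43664135-43664434, strand -): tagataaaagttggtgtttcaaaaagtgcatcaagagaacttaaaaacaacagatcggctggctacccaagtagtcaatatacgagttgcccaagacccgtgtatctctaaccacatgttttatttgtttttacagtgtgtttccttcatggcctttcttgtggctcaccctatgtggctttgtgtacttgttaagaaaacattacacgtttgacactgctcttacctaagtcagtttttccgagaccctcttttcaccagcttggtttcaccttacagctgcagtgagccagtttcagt
Cd96 promoter (chr16:46120199-46120498, strand -): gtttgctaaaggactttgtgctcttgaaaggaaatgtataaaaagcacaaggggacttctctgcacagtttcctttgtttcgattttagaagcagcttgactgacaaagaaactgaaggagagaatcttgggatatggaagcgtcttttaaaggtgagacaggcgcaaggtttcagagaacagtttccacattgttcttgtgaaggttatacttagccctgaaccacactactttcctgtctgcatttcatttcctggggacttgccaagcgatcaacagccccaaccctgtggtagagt
Among 8 receptors with an entry, which hold 9 such windows, Havcr2 alone had a match, 200 bases before its start site. TGANTCA, searched on both strands, was found in 7.81% of 32851 promoters of the same length. The AP-1 sequence TGACTCA, 1 of the forms of TGANTCA, stood in none of the 9 windows and in 5.20% of all promoters. These are matches of letters in a short window and say nothing of binding.

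Cd226, whose product is the activating receptor for PVR (chromosome 18, 89197431 to 89270201, plus strand), had 11.2, 9.28 and 11.1 FPKM in Bach2-cKO libraries, against 12.3, 11.2 and 12.4 FPKM in WT libraries. The Bach2-cKO values lay just below the WT values, by a margin far smaller than for Cd96, and the difference did not pass (log2 fold change -0.18, 95% interval -0.41 to 0.054, adjusted p = 0.275). Ratios within a library set these 3 receptors against one another. Tigit over Cd226, as a ratio of FPKM, was 31.1, 38.2 and 40.8 in Bach2-cKO libraries and 16.0, 13.6 and 16.7 in WT libraries. Cd96 over Cd226 was 1.94, 2.34 and 2.28, against 3.35, 3.64 and 3.05 in WT. Tigit over Cd96, which was not among the ratios planned, was 16.7 ± 1.01 and 4.67 ± 0.868 (SD, n = 3 libraries each), 3.58 times as high in Bach2-cKO. It sets a gene that rose over a gene that fell, so its wide separation follows from those calls and adds nothing to them. Such a ratio within a library does not depend on how the library was scaled, and its level, though not its change, depends on the gene lengths used. Pvr itself, which the sorted cells also expressed, fell to 21.3, 23.3 and 22.7 FPKM in Bach2-cKO, against 29.7, 29.0 and 32.7 FPKM in WT (log2 fold change -0.43, adjusted p = 0.00936). Ligand genes Nectin2 and Nectin3 were below the filter. Nectin2 had 0.744 ± 0.114 and 0.799 ± 0.254 FPKM (SD, n = 3 libraries each).

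**Figure D3:**
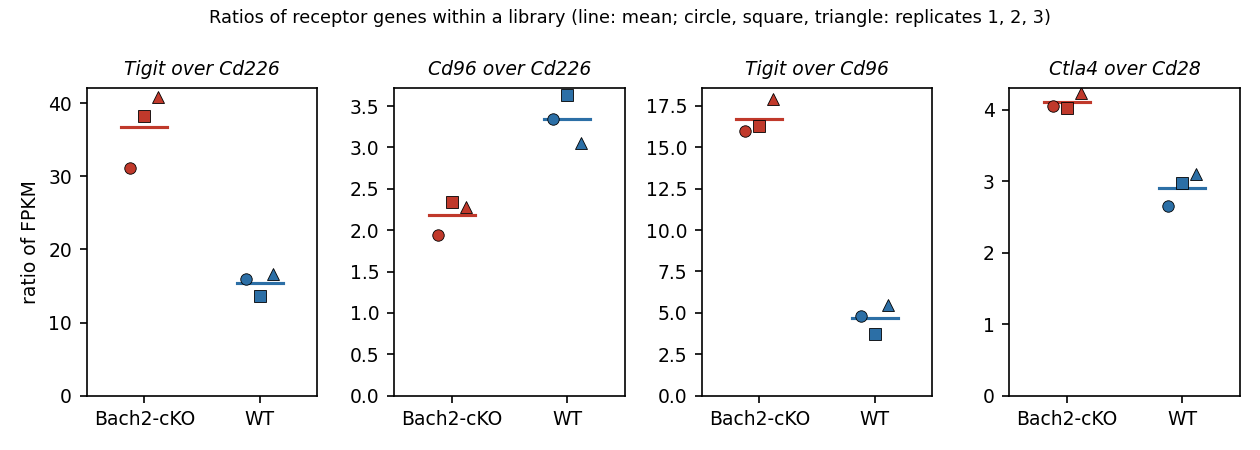
Ratios of FPKM between receptor genes in each library, with Bach2-cKO in red left of WT in blue and lines at the means. In all 4 panels the groups do not overlap, with Cd96 over Cd226 lower and the other ratios higher in Bach2-cKO. The ratios were not tested, and Tigit over Cd96 was not among those planned.

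Ctla4 (chromosome 1, 60887000 to 60915832, plus strand) had the highest deposited FPKM of the 10 in every library and a difference that did not pass. Its values were 628.8, 608.7 and 717.1 FPKM in Bach2-cKO and 486.1, 453.8 and 597.6 FPKM in WT libraries. All Bach2-cKO values were above all WT values, but WT replicate 3 came close to the lowest of them. The log2 fold change was 0.35 (SE 0.12, 95% interval 0.084 to 0.62, adjusted p = 0.0814). Without WT replicate 3 the adjusted p was 0.0265 and the log2 fold change 0.47, and limma-voom on the recovered reads gave an adjusted p of 0.0485. The pseudogene Rpl18-ps1, at a mean of 2.36 FPKM, overlaps Ctla4 on the same strand. Its opponent Cd28, the costimulatory receptor that uses the same ligands, had 155.1, 151.3 and 169.4 FPKM in Bach2-cKO and 183.5, 152.2 and 192.9 FPKM in WT libraries (adjusted p = 0.353). Ctla4 over Cd28 was 4.05, 4.02 and 4.23 in Bach2-cKO, against 2.65, 2.98 and 3.10 in WT, so that this ratio did not overlap between the groups. Ctla4 alone did not overlap either, like 35.6% of all genes tested. How often ratios of other gene pairs fail to overlap was not counted, and the ratio was not tested.

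Pdcd1 (chromosome 1, 94038305 to 94052553, minus strand), the other member of the CD28 family, had 66.3, 61.2 and 81.0 FPKM in Bach2-cKO libraries and 92.7, 86.5 and 80.6 FPKM in WT libraries. The groups overlapped through Bach2-cKO replicate 3 and WT replicate 3, and the difference did not pass (log2 fold change -0.32, SE 0.11, 95% interval -0.57 to -0.070, adjusted p = 0.0873). Lag3 (chromosome 6, 124904361 to 124911705, minus strand) was split within its group. It had 159.0, 161.4 and 88.3 FPKM in Bach2-cKO, against 75.0, 63.0 and 105.2 FPKM in WT. Bach2-cKO replicate 3 lay below WT replicate 3, and the log2 fold change of 0.72 had an SE of 0.26 (95% interval 0.11 to 1.34, adjusted p = 0.109). Without Bach2-cKO replicate 3, Lag3 passed at 1.01 with an adjusted p of 0.0158, and Pdcd1 at -0.43 with an adjusted p of 0.0133. That library also had the lowest sums of CD8 and gamma delta T cell markers in its group and lay nearest to WT on the first principal component; the part of these in the Lag3 and Pdcd1 values was not tested.

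Both receptors for HVEM were measured, and 1 of them fell. Btla (chromosome 16, 45224315 to 45252895, plus strand) had 40.4, 41.6 and 39.8 FPKM in Bach2-cKO libraries and 56.0, 57.0 and 55.8 FPKM in WT libraries. It was the tightest of the 10, with a coefficient of variation of 2.20% and 1.11% in the groups, and its log2 fold change of -0.46 had an SE of 0.054 (95% interval -0.59 to -0.34, adjusted p = 0.00199). Btla is also a B cell gene, and the B cell markers above summed higher in every Bach2-cKO library; the part of B cells in the Btla values was not tested. With the B cell covariate its log2 fold change was -0.51 with an adjusted p of 0.0893, and with scaling to Cd3e, chosen after seeing the data, -0.29 with an adjusted p of 0.172. Cd160 (chromosome 3, 96798763 to 96829351, minus strand), which natural killer and CD8 T cells also use, had 7.51, 6.69 and 6.16 FPKM in Bach2-cKO, against 5.97, 8.28 and 7.36 FPKM in WT. The groups overlapped fully, with a log2 fold change of -0.068 and a 95% interval from -0.38 to 0.24 (adjusted p = 0.771). Tnfrsf14, which encodes HVEM, had means of 92.0 ± 1.74 and 104.0 ± 6.47 FPKM (SD, n = 3 libraries each) and did not pass (adjusted p = 0.108).

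Vsir (chromosome 10, 60346851 to 60372684, plus strand) fell by the smallest step of those that passed. It had 109.8, 95.8 and 111.6 FPKM in Bach2-cKO libraries, against 136.1, 127.9 and 145.3 FPKM in WT libraries. The values did not overlap (log2 fold change -0.37, SE 0.080, 95% interval -0.55 to -0.18, adjusted p = 0.0214). The call was lost without Bach2-cKO replicate 2 (adjusted p = 0.0682), WT replicate 1 (0.0744) or WT replicate 3 (0.0617), and with the B cell covariate Vsir stood at -0.16 with an adjusted p of 0.528. Scaled to Cd3e it stood at -0.19 with an adjusted p of 0.295. Cd3e itself had a log2 fold change of -0.18 and did not pass (adjusted p = 0.221). Cd3d and Cd3g, which encode other CD3 chains, fell, with log2 fold changes of -0.37 and -0.28 (adjusted p = 0.0292 and 0.0346). The part of T cell content in the Vsir and Btla falls was not tested. Cdh23, at a mean of 1.96 FPKM, overlaps Vsir on the opposite strand, and their reads cannot be separated where counting ignored strand.

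The receptor genes covered a wide range of abundance. Ctla4 and Tigit together made up 68.0%, 69.2% and 75.0% of the summed FPKM of the 10 genes in Bach2-cKO libraries and 61.4%, 60.2% and 63.9% in WT libraries. The sums were 1434.6, 1390.7 and 1559.7 FPKM in Bach2-cKO, against 1111.9, 1007.4 and 1260.3 FPKM in WT. In the deposited FPKM the order in Bach2-cKO ran Ctla4, Tigit, Lag3, Vsir, Pdcd1, Btla, Havcr2, Cd96, Cd226 and Cd160, with libraries overlapping between Lag3 and Vsir and between Btla and Havcr2. In WT it ran Ctla4, Tigit, Vsir, Pdcd1, Lag3, Btla, Cd96, Cd226, Havcr2 and Cd160, with Pdcd1 and Lag3 and also Havcr2 and Cd160 overlapping. On this scale Havcr2 stood above Cd96 and Cd226 in Bach2-cKO and below both in WT.

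These levels rest on the gene length inside the FPKM. For 7 of the 10 receptors that length equalled the mean length of the gene's annotated transcripts, counting short ones, and not the length of its exons. It was 1079 bases for Ctla4, whose exons cover 2330 bases, and 1839 bases for Vsir, whose exons cover 5014 bases. For Tigit, Btla and Cd226 it was another length (963, 3243 and 1634 bases, beside exons of 919, 3396 and 4891 bases). The positions of these 3 genes also differ from GENCODE M21, the annotation that gave the exon lengths. Whether those exons match the ones counted is not known. Computed with the exon length, a scale chosen after seeing the data, Tigit was above Ctla4 in Bach2-cKO, at 403.0 ± 62.0 and 301.7 ± 26.7 FPKM by exon length (SD, n = 3 libraries). In WT, Ctla4 was at 237.3 ± 34.9 and Tigit at 194.6 ± 30.2 on that scale, and their libraries overlapped. Vsir then overlapped with Btla in both groups, and Cd226 took the last place below Cd160. Havcr2 then stood above Cd226 in WT too, at 8.47 ± 2.46 against 4 ± 0.22 FPKM by exon length, and below Cd96 only in WT. A ratio of means between the groups does not depend on this length; a fold change on log2(FPKM + 1) does so slightly through the added 1, and for Havcr2 it was 1.82 with 1 added and 1.92 with 0.1 added.

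Related genes came from lists written with earlier results of these data known, and their counts are read against the same 7.02% higher and 8.31% lower over all genes. The 6 lists hold 66 tested genes, of which 18 rose and 12 fell. With the B cell covariate, limma called 1 higher, Lilrb4a at 2.86 with an adjusted p of 0.0137, and 0 lower, with 19 and 5 at an unadjusted p under 0.05; the other calls below were lost there. Of 14 ligands 10 were tested, 1 rose and 1 fell. The galectin gene Lgals3, whose product is a reported ligand of LAG-3, rose to 163.5, 123.2 and 107.0 FPKM in Bach2-cKO, against 61.0, 84.6 and 76.3 FPKM in WT (log2 fold change 0.81, adjusted p = 0.0192). The gene that fell was Pvr. The CTLA-4 ligand genes Cd80 and Cd86 had log2 fold changes of -0.39 and 0.27 and did not pass (adjusted p = 0.0668 and 0.0616), and Cd274, which encodes PD-L1, averaged 59.5 ± 4.05 and 60.1 ± 5.94 FPKM (SD, n = 3 libraries each). Fgl1 was listed at 0 in all 6 libraries. The count of risen ligands became 0 without Bach2-cKO replicate 2 or WT replicate 1, and 2 without Bach2-cKO replicate 3 or WT replicate 3. It was also 0 with no filter on low values and with the replicate block.

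Of 10 genes for trafficking and shedding, Lrba rose and 9 did not pass. LRBA protects CTLA-4 from lysosomal breakdown, and its gene had 31.3, 29.5 and 29.0 FPKM in Bach2-cKO, against 18.6, 16.5 and 22.1 FPKM in WT (log2 fold change 0.63, SE 0.11, adjusted p = 0.00823). The adaptor gene Trat1 had a log2 fold change of -0.40 (adjusted p = 0.0535) and passed without WT replicate 2 (adjusted p = 0.0245). The clathrin adaptor gene Ap2m1 stood at 0.14 (adjusted p = 0.142) and Arf1, which encodes a small GTPase, at 0.13 (adjusted p = 0.191). Of 14 phosphatases, kinases and adaptors, 2 rose and 3 fell. Inpp5d, which encodes the lipid phosphatase SHIP-1, was 0.31 higher on the log2 scale (adjusted p = 0.0106) and the adaptor gene Grb2 0.33. Falls were seen for the kinase genes Lck and Fyn and for Pik3r1, a subunit of PI3 kinase, with log2 fold changes of -0.35, -0.32 and -0.39. The PD-1 phosphatase gene Ptpn11 had 31.5 ± 0.140 and 29.6 ± 0.786 FPKM (SD, n = 3 libraries each) and did not pass. The 2 that rose became 1 without any library except Bach2-cKO replicate 3, and the 3 that fell became 1 without WT replicate 1. With no filter, and also with the replicate block, 1 rose and 3 fell.

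Among 3 receptors nearest to the members by family or ligand, Icos and Crtam rose and Cd28 did not pass. Icos, the inducible costimulator, had 261.2, 251.4 and 271.8 FPKM in Bach2-cKO and 145.7, 144.5 and 201.7 FPKM in WT libraries (log2 fold change 0.69, SE 0.13, adjusted p = 0.0115). Icos did not pass with no filter on low values (adjusted p = 0.0550) or with the B cell covariate (0.160). Crtam, a nectin-like receptor of activated T cells, rose by 0.86 on the log2 scale, with an adjusted p of 0.0165 that was 0.0509, 0.0568 and 0.0515 without Bach2-cKO replicate 2, WT replicate 1 and WT replicate 2; Crtam did not pass with no filter (0.0668) or with the replicate block (0.0580) either. Of 13 other inhibitory receptors of T cells 10 were tested, 5 rose and 4 fell. Lilrb4a, which encodes an inhibitory receptor shared with myeloid cells, went furthest, to 68.4, 75.8 and 75.0 FPKM in Bach2-cKO, against 10.4, 8.71 and 13.0 FPKM in WT (log2 fold change 2.68, SE 0.13, adjusted p = 0.00011). Klrc1, which encodes the NKG2A chain, rose by 1.27 on the log2 scale. Pecam1 and Cd5, both with inhibitory motifs in their tails, fell by 0.73 and 0.67 on the log2 scale. Without WT replicate 1 the counts were 3 and 2, and without WT replicate 2, 3 rose. With no filter 2 rose and 3 fell.

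Transcription factors known to act on coinhibitory receptor genes included 7 of 20 that rose and 4 that fell. Prdm1, which encodes BLIMP-1, had 39.2, 35.5 and 34.9 FPKM in Bach2-cKO and 11.5, 10 and 16.6 FPKM in WT libraries (log2 fold change 1.48, adjusted p = 0.00154). Nfil3, a factor known to induce Havcr2, had 67.9, 72.8 and 60.3 FPKM, against 22.8, 24.8 and 29.8 FPKM in WT (log2 fold change 1.35, adjusted p = 0.000571). For Tox2 the values were 12, 13.5 and 14.5 FPKM in Bach2-cKO and 6.75, 6.65 and 6.26 FPKM in WT (log2 fold change 0.92). Tcf7, which encodes TCF-1, fell by 1.37 on the log2 scale. With the B cell covariate the adjusted p was 0.0518 for Prdm1 and Tcf7, 0.0568 for Nfil3 and 0.107 for Tox2.

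**Figure D4:**
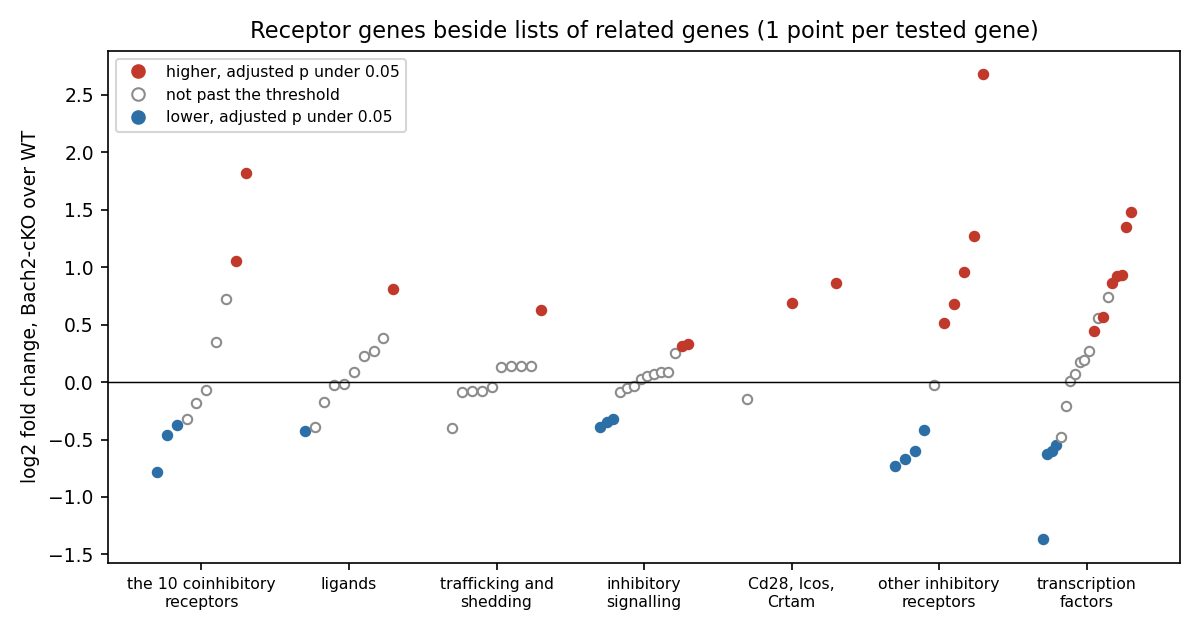
Log2 fold change, Bach2-cKO over WT, of the 10 receptor genes and of each tested gene in 6 related lists; red and blue points passed an adjusted p of 0.05. Lilrb4a at 2.68 is the highest and Tcf7 at -1.37 the lowest point.

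Several receptor genes lie near one another or near other T cell genes, and their neighbours were measured in the same fit. Tigit, Btla and Cd96 are on chromosome 16, with 1560.1 kb between Tigit and Btla and 782.8 kb between Btla and Cd96; the first rose and the other 2 fell. Of the 20 nearest tested protein-coding genes on either side of the receptors, 1 rose and 2 fell, beside 7.02% and 8.31% of all genes, a share near that of any gene. The riser was Icos, 62.1 kb after Ctla4. Plcxd2, 25.4 kb before Cd96, fell to 3.84 ± 0.573 FPKM in Bach2-cKO, against 9.18 ± 1.19 FPKM in WT (SD, n = 3 libraries each; log2 fold change -1.07). Cd200, which encodes an inhibitory ligand and lies 129.2 kb after Btla, had 56.7 ± 2.22 and 99.3 ± 5.76 FPKM (log2 fold change -0.80). Cd4, 16.1 kb from Lag3, had 277.7, 265.2 and 331.3 FPKM in Bach2-cKO and 367.7, 342.4 and 373.5 FPKM in WT (log2 fold change -0.31, adjusted p = 0.0578). Zbtb20, 6.26 kb from Tigit, had 39.7 ± 1.26 and 32.0 ± 9.71 FPKM and did not pass.

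The genes whose 6 values ran most like those of a called receptor were sought among 9151 protein-coding genes with a mean of at least 5 FPKM, by the root mean square difference of log2(FPKM + 1) after each gene's own mean was removed. Nearest to Tigit were Klrg1, an inhibitory lectin-like receptor gene, Arl5a and the IL-18 receptor gene Il18rap, at 0.0715 to 0.0802. For Havcr2, Ttc39c, the IL-33 receptor gene Il1rl1 and Il17rb came nearest at 0.233 to 0.246. The difference is not scaled to a gene's change or spread, so its size cannot be compared between receptors. Sharing the group difference alone also brings genes near. The chemokine receptor gene Ccr6 was nearest to Cd96 at 0.0413, followed by Traf3ip3 and Snx13. Il27ra, which encodes an IL-27 receptor chain, was nearest to Vsir at 0.0283, followed by Tnfrsf22 and Lima1. For Btla the nearest were 2410002F23Rik, Rassf5 and Tatdn3, at 0.0383 to 0.0385.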

How the data were processed

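The authors deposited FPKM per gene and library. HISAT2 2.0.5, featureCounts 1.5.0-p3 and build mm9 are named in the submitters' processing notes, while the gene positions equal GENCODE M21 (GRCm38) for 45128 of 49326 shared identifiers, so positions are given on GRCm38. No source used here gives the annotation or strand setting. FPKM steps gave whole reads (tolerance 0.001 reads) for all 28530 genes above 0, 24228 of them at the mean length of the M21 transcripts; these reads served for depth and limma-voom. Replicates differed by more than sampling noise (chi-square per degree of freedom 11.5 to 27.1).

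Since the values are FPKM, limma was used in place of a count test. The test ran on log2(FPKM + 1) for genes that reached 1 FPKM in 3 or more libraries, with limma 3.58.1 (lmFit, eBayes with trend, R 4.3.3), two-sided, Bach2-cKO over WT, with Benjamini-Hochberg adjustment over all genes. Fold changes are on this scale, which understates low genes. The procedure was also run on simulated reads with planted changes. Their spread was set and not taken from these libraries, so that run does not measure the error rate of the calls here. The members, lists and rules were chosen with earlier results of these data known. Named were the members, up to 4 genes per list with the smallest p, nearest neighbours and most alike genes. Cd274, Nectin2, Tnfrsf14, Ptpn11, Grb2, Fgl1, Cd3d and Cd3g were named after their values were seen. Pvrig of the lists was not found by symbol, and Cd244a was taken as Cd244. Figures used Matplotlib 3.10.9 under Python 3.11.15.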

Additional observations from a re-analysis of the deposited data

How the results depend on the processing

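Of 160 refits of the 10 receptors 141 kept direction and side of the threshold. The B cell marker level lay higher in every Bach2-cKO library than in any WT library, so a fit with it cannot well separate it from genotype. With the B cell marker level as a covariate 1 receptor was higher and 0 lower by limma, and 35 and 49 of all genes. At an unadjusted p under 0.05 that limma fit had 3 receptors higher and 2 lower. The smallest adjusted p among Cd96, Btla and Vsir was 0.0889 there. Limma-voom, which was run without the covariate, called 3 lower. With the covariate Cd226 stood at 0.053 and Cd28 at 0.11. Scaling to Cd3e, chosen after seeing the data, shifted the median of all genes by 0.18; 4 receptors were higher (Ctla4 and Lag3 joined) and 1 lower, 1243 of all genes were higher and 410 lower, 22 and 4 of the 66 list genes, and Cd160 stood at 0.11 and Cd28 at 0.031; Btla (adjusted p = 0.172) and Vsir (0.295) lost their calls. With no filter 501 and 681 of all genes passed and Vsir did not (adjusted p = 0.0661); at an adjusted p of 0.01, 341 and 454. Leaving out 1 library gave 492 to 1224 higher and 560 to 1375 lower genes, against 967 and 1144 with all, and Cd160 between -0.18 and 0.025, above 0 only without WT replicate 2. The replicate block gave 625 higher and 657 lower genes and changed no receptor's call; same-numbered libraries deviated with correlations of -0.053, 0.006 and -0.215, so the numbers are not taken as pairs. Median-ratio scaling, quantile normalization, a pseudocount of 0.1, a robust variance and a mean filter changed no receptor's call.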
